A study of Mus musculus with 10 samples.

Results

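The cell cycle and DNA replication genes described here are 40 genes taken by symbol from the table of RNA levels of cultured aortic smooth muscle cells, which holds 36144 genes. The list comprises 17 genes of S phase and its entry, 21 genes of G2 and mitosis and the 2 G1 cyclin genes Ccnd1 and Ccnd2. All 40 were found in the table, and all 40 passed the filter for testing, a mean of at least 1 TPM (a level corrected for transcript length and scaled to a common library total) over the 6 RNA libraries. They were chosen by function, with earlier results of these data known.

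The cells were primary vascular smooth muscle cells grown from the medial layer of the aorta of male mice aged 8 weeks, in serum-containing medium, and were used between passages 2 and 7. RNA was measured in 3 wild-type mice and 3 mice with smooth muscle-specific overexpression of Adamts7, a gene for a secreted metalloprotease, while ATAC-seq, which maps open chromatin, covered 2 mice of each genotype. The overexpression mice carried Myh11-Cre-ERT2, a tamoxifen-dependent recombinase driven by a smooth muscle myosin promoter. No driver is named for the wild-type mice, and neither tamoxifen treatment nor the passage of each culture is given in the sources used here. The effects of the driver, of tamoxifen and of Adamts7 therefore cannot be told apart. Replicates are mice, numbered as in the titles.

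Adamts7 read 6.08, 6.18 and 8.20 TPM in wild-type replicates 1 to 3 and 98.7, 79.1 and 75.8 TPM in overexpression replicates 1 to 3, so every library matched its genotype label (log2 fold change 3.45 ± 0.14 SE, limma adjusted p = 0.000357). That label was used although these 3 overexpression libraries have titles that start with the abbreviation for wild type, and all libraries carry the same batch label. The labelled cell type was checked against its markers: all 10 smooth muscle markers exceeded the 1 TPM filter, with Acta2 at a mean of 1249 TPM and Myh11 at 37.3 TPM in wild type. Many endothelial markers were abundant too, such as Emcn at a mean of 2046 TPM and Cdh5 at 919 TPM in wild type. Pecam1, Eng, Egfl7, Erg, Esam and Tie1 had wild-type means of 162 to 890 TPM, and Sox17 and Sox18 of 43.7 and 42.3 TPM. Kdr, Tek, Vwf, Robo4 and Cldn5 were low, at wild-type means of 5.49 to 16.4 TPM, against a median of 21.4 TPM over all genes tested. The summed level of the endothelial markers was 5124 to 5656 TPM in wild type, against 2615 to 4325 TPM in overexpression cultures. The smooth muscle markers summed to 4235 to 4379 TPM in wild type and 4946 to 6772 TPM in overexpression cultures. This sum was below the endothelial one in every wild-type library and above it in every overexpression library. At an unadjusted p under 0.05, 12 of 15 endothelial markers (80%) were lower in overexpression cultures, against 8.94% of all genes. At that cut, 8 of 10 smooth muscle (80%) and 15 of 16 macrophage markers (93.8%) were higher, against 10.6% of all genes. Of 5 fibroblast markers tested, 2 were lower and 0 higher. In these lists limma called 0 markers at an adjusted p under 0.05. All 16 macrophage markers passed the filter, and their summed level was 522 to 767 TPM in wild type, against 1157 to 3667 TPM in overexpression cultures. No endothelial or macrophage marker was at 0 in any library, whereas none of the 4 Schwann cell markers passed the filter. TPM values do not record read number, so the sequencing depth is unknown.

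Proliferating cells copy their DNA in S phase and divide it in mitosis, and each phase has its own set of periodically expressed genes. In textbook terms, D-type cyclins drive phosphorylation of the retinoblastoma protein in G1, which frees E2F factors to activate genes for origin licensing, the replicative helicase and nucleotide synthesis. Genes of mitosis are activated later, through the MuvB complex with B-MYB and FOXM1, at promoters that hold a CHR element (cell cycle genes homology region) and CCAAT boxes bound by NF-Y. Smooth muscle cells of a healthy artery rarely divide, whereas in culture with serum they re-enter the cycle.

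The promoters of the S phase and mitosis genes are shown first because their motifs differ between these classes. RefSeq promoter windows, from 250 bases before to 50 bases after the annotated start in GRCm38.p6, were found for 30 of the 40 genes, as 32 windows. They were searched on both strands for 3 motifs. A window was counted as holding an E2F motif where it held TTGGCGC, the form TTCCCGC, the form TTGCCGC or the form TTCGCGC. The CHR was searched as TTTGAA, and the NF-Y box was searched as CCAAT. The 4 windows below belong to the 2 S phase genes and the 2 mitosis genes with the smallest unadjusted p that have a window, printed 5′ to 3′ on the gene's strand with every match in capitals. Mcm5 lies at chr8:75109259-75109558 (plus strand), Cdt1 at chr8:122567765-122568064 (plus), Ube2c at chr2:164769679-164769978 (plus) and Ccnb2 at chr9:70421505-70421804 (minus).
Mcm5: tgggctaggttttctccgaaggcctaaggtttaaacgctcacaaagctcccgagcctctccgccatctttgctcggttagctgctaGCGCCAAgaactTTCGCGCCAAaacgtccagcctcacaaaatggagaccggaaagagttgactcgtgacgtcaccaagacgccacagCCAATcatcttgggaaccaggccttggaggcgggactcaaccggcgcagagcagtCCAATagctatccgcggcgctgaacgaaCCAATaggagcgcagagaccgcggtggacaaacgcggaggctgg
Cdt1: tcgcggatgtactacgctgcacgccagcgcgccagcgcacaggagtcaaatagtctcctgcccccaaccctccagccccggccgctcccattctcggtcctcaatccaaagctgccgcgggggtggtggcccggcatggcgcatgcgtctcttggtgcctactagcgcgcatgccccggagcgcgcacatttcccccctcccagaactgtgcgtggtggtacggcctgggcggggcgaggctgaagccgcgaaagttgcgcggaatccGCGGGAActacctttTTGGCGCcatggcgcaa
Ube2c: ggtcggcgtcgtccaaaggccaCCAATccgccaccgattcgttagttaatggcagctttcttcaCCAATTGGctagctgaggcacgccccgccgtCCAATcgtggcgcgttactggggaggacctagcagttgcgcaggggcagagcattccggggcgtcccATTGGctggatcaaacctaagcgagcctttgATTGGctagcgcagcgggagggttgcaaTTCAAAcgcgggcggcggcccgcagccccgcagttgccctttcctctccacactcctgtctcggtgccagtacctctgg
Ccnb2: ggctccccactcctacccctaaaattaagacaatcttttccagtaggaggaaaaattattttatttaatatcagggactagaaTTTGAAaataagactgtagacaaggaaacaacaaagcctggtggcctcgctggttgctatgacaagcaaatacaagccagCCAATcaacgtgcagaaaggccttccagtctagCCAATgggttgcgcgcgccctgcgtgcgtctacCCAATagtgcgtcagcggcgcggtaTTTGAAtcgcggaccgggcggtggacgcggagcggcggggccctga

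In the Mcm5 window the capitals mark 3 E2F matches, 2 of which overlap, and 3 NF-Y boxes. The Cdt1 window holds 2 E2F matches, both downstream of the annotated start, and no CHR or NF-Y match. Ube2c has 1 CHR and 6 NF-Y boxes, and Ccnb2 has 2 CHR matches and 3 NF-Y boxes, with no E2F match in either. Matches on the opposite strand appear as the reverse complement.

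Among all windows of these genes, an E2F motif was present in 11 of 16 S phase windows (68.8%) and in 3 of 16 mitosis windows (18.8%). The CHR had the opposite distribution, with 1 of 16 S phase windows (6.25%, Mcm2) and 12 of 16 mitosis windows (75%). Of all 32851 windows in the reference, 9.57% held an E2F motif and 17.9% the CHR, and of the 12725 windows of tested genes 16.3% and 12%. NF-Y boxes were frequent in both classes, in 11 of 16 S phase windows and 15 of 16 mitosis windows, against 37.4% of all windows. The CHR lay within 50 bases of the annotated start in 11 mitosis windows and in no S phase window, against 4.94% of all windows; this distance was chosen after the positions were seen. E2F and NF-Y matches overlapped 3 times, in 2 genes, and the CHR overlapped neither motif. A match is a string of letters and does not show that a factor binds there.

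**Figure D1:**
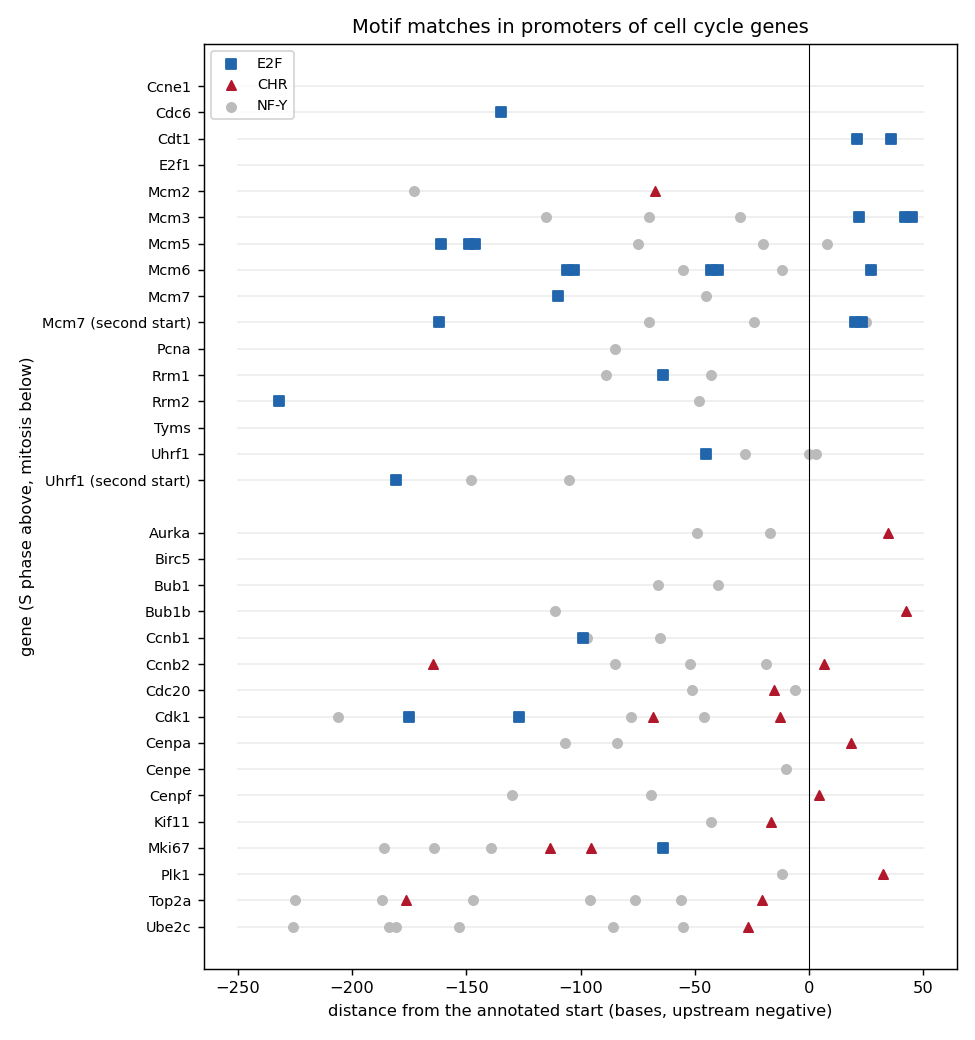
Each line is a promoter window of a cell cycle gene, S phase genes above and mitosis genes below, and the horizontal axis gives the distance in bases from the annotated start. Squares (E2F) fall mainly in the upper block, in 11 of 16 windows, and triangles (CHR) in the lower block, in 12 of 16.

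RNA of the cell cycle genes was abundant in both genotypes. Their mean level over the 6 libraries ran from 14.9 TPM for Cdc6, which loads the helicase at origins, to 451 TPM for Ccnd1, with a median of 59.5 TPM, against 21.4 TPM over all 13131 genes tested. After the G1 cyclins came the mitotic kinase gene Cdk1, of rank 567 by level among all genes tested, then Pcna, the sliding clamp of DNA polymerase (rank 731), and Ube2c, a ubiquitin-conjugating enzyme of the anaphase-promoting complex (rank 1090). The median levels of the classes were alike on this length-corrected scale, 58.3 TPM for S phase and 54.2 TPM for mitosis genes.

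No cell cycle gene passed the test between genotypes. Of the 40, limma called 0 at an adjusted p under 0.05, against 2 of all 13131 genes (0.0152%), and the adjusted p of the 40 ran from 0.131 to 0.977. Most values lay slightly below wild type: 31 of 40 genes (77.5%) had a negative log2 fold change, where 51.7% of all genes did, and their median was -0.11 against -0.0090 over all genes. Of the 13 mitochondrially encoded genes, a sign of RNA quality, 12 were below 0 as well, with a median of -0.12, and their summed level was 124380 to 143080 TPM in wild-type and 119570 to 123190 TPM in overexpression libraries, without overlap. Their part in the cell cycle values was not tested; with TPM recomputed without them, 22.5% of the 40 genes were lower at an unadjusted p under 0.05, against 10.6% of all genes. At an unadjusted p under 0.05, 8 genes (20%) were lower in overexpression cultures and 1 (2.5%) was higher, beside a background of 19.5% of all genes, 8.94% lower and 10.6% higher. The 3 overexpression libraries lay wholly below the wild-type ones for 8 genes (20%, background 12.9%) and wholly above for 2 (5%, background 14.3%). In such bulk RNA, fewer cells in cycle, less RNA per cell and a different mix of cell types cannot be told apart. Mean levels differed by less than 10% for 23 genes, were 10 to 20% lower for 12 and over 20% lower for 3, Cdt1, Ccnb2 and Ube2c. Gins2 and Ccnd2 were over 10% higher.

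**Figure D2:**
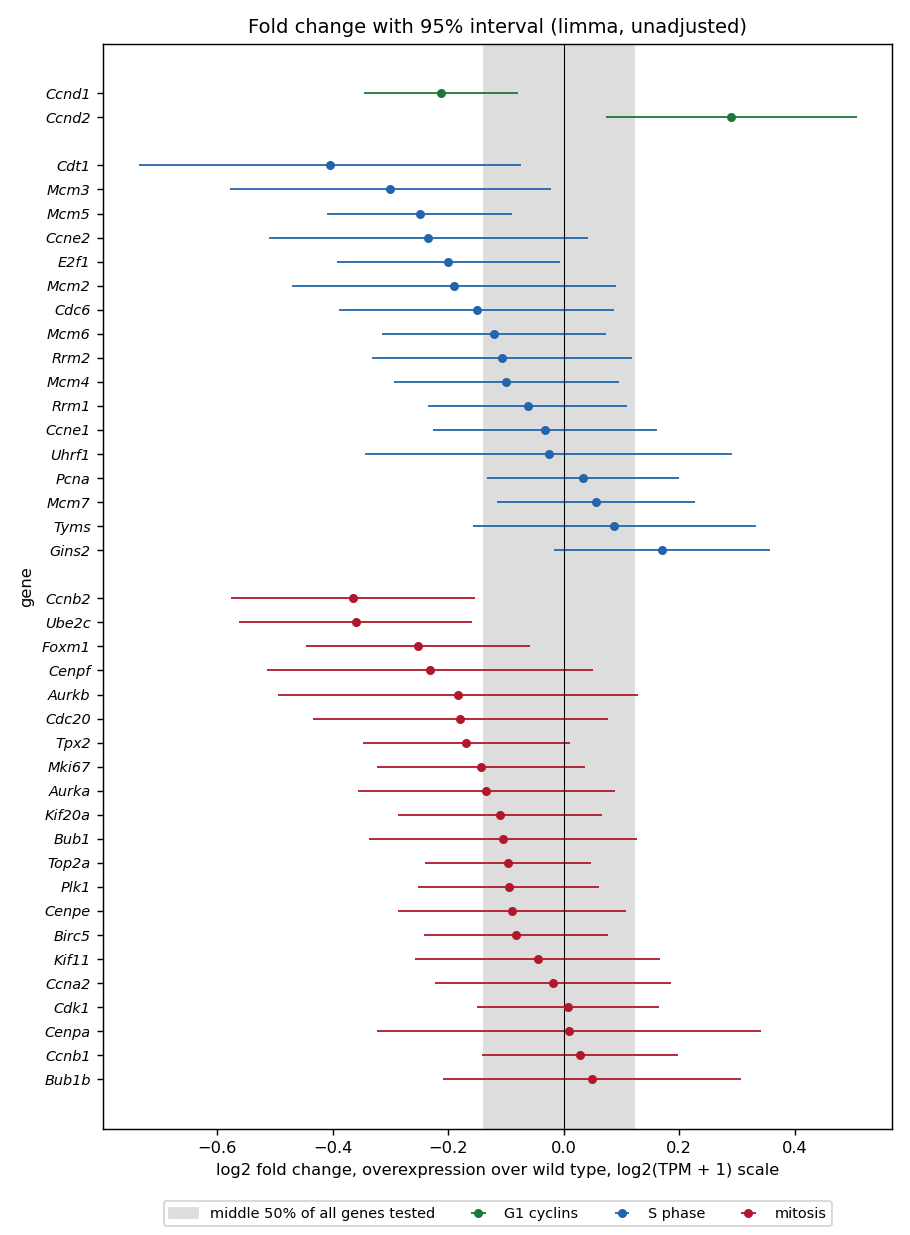
Points are log2 fold changes of overexpression over wild type on the log2(TPM + 1) scale, bars are unadjusted 95% intervals from limma, and the grey band spans the middle 50% of all genes tested. For 31 of the 40 genes the interval includes 0.

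The S phase and mitosis genes had nearly equal medians. Their median log2 fold changes were -0.11 in S phase (13 of 17 below 0) and -0.11 in mitosis (17 of 21 below 0), a difference of 0.0010. At an unadjusted p under 0.05 in limma, 4 S phase genes (23.5%) and 3 mitosis genes (14.3%) were lower, against 8.94% of all genes. In both classes 0 were higher, against 10.6% of all genes. By library, the S phase median relative to wild type was -0.067, -0.013 and 0.088 in wild-type replicates 1 to 3 and -0.067, -0.23 and -0.047 in overexpression replicates 1 to 3. The mitosis median was -0.014, -0.066 and 0.059 in wild type and -0.11, -0.24 and -0.00015 in overexpression cultures. In both classes the genotypes overlapped, wild-type replicate 3 was highest and overexpression replicate 2 lowest.

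These libraries stood out across the cell cycle genes. Overexpression replicate 2 had the lowest level of all 6 libraries for 28 of the 40 genes, where it was lowest for 37.7% of all genes tested, and wild-type replicate 3 had the highest for 25, against 18.9% of all genes. Without overexpression replicate 2 the median was -0.050 for S phase and -0.063 for mitosis genes, and 5 genes (12.5%), not 8, were lower at an unadjusted p under 0.05, where the share of all genes was 6.57%. Without overexpression replicate 3 the medians were -0.16 and -0.17, and limma called 2 of the 40 genes (5%, background 6.3%), Ccnb2 and Ube2c (adjusted p = 0.0426 and 0.0434). Without wild-type replicate 3 the medians were -0.060 and -0.076, with 4 genes lower (10%, against 5.25% of all genes) and 0 higher (against 7.57%). Overexpression replicate 2 also had the lowest endothelial marker median, -0.92 relative to wild type, against -0.45 and -0.24 in overexpression replicates 1 and 3, and the highest smooth muscle marker median, 0.73 against 0.54 and 0.27. Its macrophage marker median was 1.98, against 2.16 and 0.68, and the part of these markers in the cell cycle values was not tested.

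**Figure D3:**
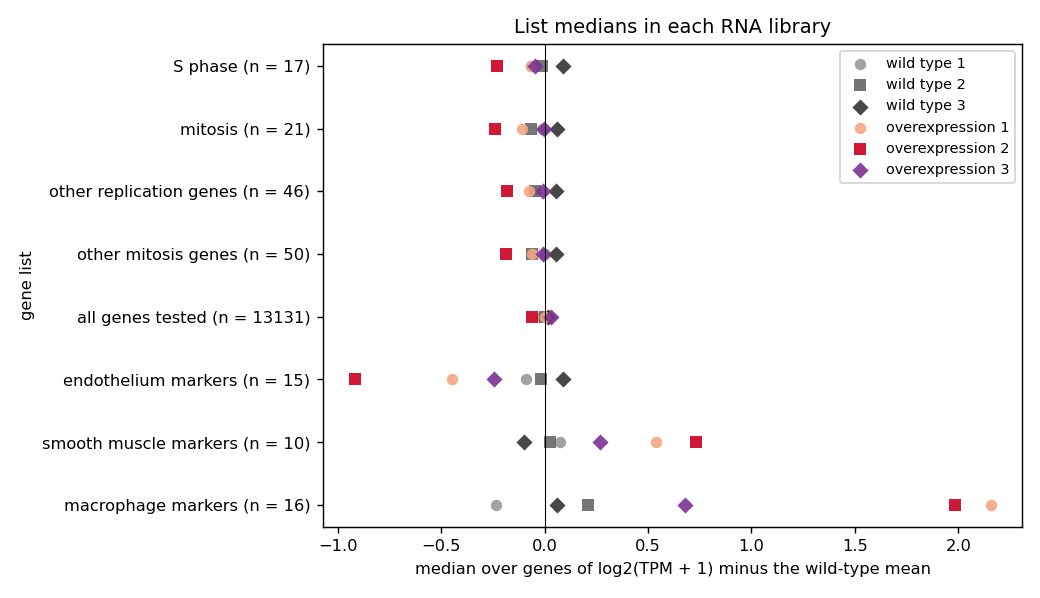
Each point is 1 RNA library, placed at the median over a gene list of log2(TPM + 1) minus the wild-type mean. The lists of replication and mitosis genes span -0.24 to 0.088, a narrower range than the endothelial, smooth muscle and macrophage marker lists below them.

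The D-type cyclins, which activate the kinases Cdk4 and Cdk6 in G1, stood on opposite sides of wild type. Ccnd1 (ENSMUSG00000070348.5, chr7:144929931-144939831 in GRCm38.p6) read 489, 471 and 491 TPM in wild-type replicates 1 to 3 and 433, 399 and 420.4 TPM in overexpression replicates 1 to 3. Ccnd2 (ENSMUSG00000000184.12, chr6:127125162-127152188) read 266, 274 and 255 TPM in wild type, against 315, 371 and 291 TPM in overexpression cultures. All 3 overexpression libraries were below wild type for Ccnd1 and above it for Ccnd2, with no overlap in either gene.

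The means were 484 ± 11.0 and 418 ± 17.2 TPM for Ccnd1 and 265 ± 9.40 and 326 ± 41.0 TPM for Ccnd2 (SD, n = 3 each). The log2 fold change was -0.21 ± 0.057 (SE) for Ccnd1 and 0.29 ± 0.093 for Ccnd2, with limma adjusted p of 0.142 and 0.173. The directions held in all 14 alternative analyses, with limma adjusted p from 0.0263 to 0.363 for Ccnd1 and from 0.0187 to 0.392 for Ccnd2. A two-sided exact permutation test gave p = 0.1 for each, as it did for every gene named here whose libraries did not overlap, the smallest value that 3 against 3 allows.

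The ratio of Ccnd1 to Ccnd2 was 1.84, 1.72 and 1.92 in wild type and 1.37, 1.08 and 1.44 in overexpression cultures. The ratio could not overlap between genotypes, because neither gene did and they differed in opposite directions, so it adds no evidence to their single values. The sum of the 2 cyclins was 755, 745 and 747 TPM in wild type, against 748, 770.3 and 712 TPM in overexpression cultures, and it overlapped. The ratio of Ccnd1 to Ccnd2 and the ratios that follow were chosen after the values were seen and are given without a test. Of related G1 genes, the kinase gene Cdk4 was at 511 ± 19.2 and 452 ± 43.3 TPM, and the remaining D cyclin gene Ccnd3 at 167 ± 4.32 and 161 ± 3.23 TPM (SD, n = 3 each).

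The E-type cyclins, partners of Cdk2 at S phase entry, overlapped between genotypes. Ccne2 was at 51.8, 37.8 and 47.1 TPM in wild type, against 36.0, 39.0 and 39.8 TPM in overexpression cultures, and wild-type replicate 2 lay inside the overexpression range. Ccne1 was at 41.9 ± 4.03 and 40.8 ± 1.11 TPM (SD, n = 3 each). Their limma adjusted p were 0.316 for Ccne2 and 0.865 for Ccne1. The ratio of Ccne2 to Ccne1 was 1.12, 0.975 and 1.16 in wild type and 0.881, 0.932 and 1.00 in overexpression cultures, and it overlapped.

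Among S phase regulators, E2f1, the activator of the S phase programme, read 34.0, 36.6 and 35.2 TPM in wild type, against 33.6, 28.4 and 29.9 TPM in overexpression cultures. The groups did not overlap, but overexpression replicate 1 lay just under the lowest wild-type library. Its log2 fold change was -0.20 ± 0.083 (SE), with a limma adjusted p of 0.247. Uhrf1, which guides maintenance methylation to newly copied DNA, overlapped widely, at 55.3 ± 5.74 and 54.6 ± 9.80 TPM (SD, n = 3 each), and the sign of its small log2 fold change, -0.026, turned without wild-type replicate 3 or overexpression replicate 2.

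Cdt1, the licensing factor that loads the MCM helicase with Cdc6, had the most negative log2 fold change of the 40 genes. It read 18.8, 25.5 and 21.9 TPM in wild type, against 16.9, 13.9 and 18.4 TPM in overexpression cultures. Overexpression replicate 3 and wild-type replicate 1 were almost level, so the groups were separate by a small margin. The log2 fold change was -0.40 ± 0.14 (SE), with a limma adjusted p of 0.196. Cdc6, of the lowest level in the list, was at 15.8 ± 0.94 and 14.1 ± 1.47 TPM (SD, n = 3 each), and its groups overlapped.

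The 6 subunits of the MCM helicase, which unwinds DNA at replication forks, had unequal fold changes. Mcm5 (ENSMUSG00000005410.6), whose promoter is printed above, read 68.0, 71.4 and 73.7 TPM in wild type, against 60.7, 56.0 and 62.2 TPM in overexpression cultures. Mcm7 read 80.8, 88.2 and 92.6 TPM in wild type, against 94.4, 85.8 and 91.6 TPM in overexpression cultures. The groups were separate for Mcm5 and overlapped for Mcm7.

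Mcm5 had a log2 fold change of -0.25 ± 0.068 (SE) and Mcm7 of 0.056 ± 0.073, with limma adjusted p of 0.146 and 0.709. The ratio of Mcm5 to Mcm7 was 0.842, 0.810 and 0.796 in wild type and 0.643, 0.652 and 0.679 in overexpression cultures. Mcm3 read 61.1, 70.9 and 77.7 TPM against 56.1, 49.8 and 63.9 TPM, overlapping through wild-type replicate 1, with a log2 fold change of -0.30 ± 0.12 (SE; limma adjusted p = 0.229). Mcm2, Mcm4 and Mcm6 had log2 fold changes of -0.19, -0.099 and -0.12, and their groups overlapped. The summed level of the 6 subunits was 467 ± 32.5 TPM in wild type, against 423 ± 31.7 TPM in overexpression cultures (SD, n = 3 each).

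Gins2, a subunit of the GINS complex that joins MCM in the active helicase, was the S phase gene with the highest fold change. It read 41.7, 48.8 and 47.7 TPM in wild type, against 50.3, 54.3 and 51.1 TPM in overexpression cultures. Every overexpression library was above every wild-type one, and the log2 fold change was 0.17 ± 0.080 (SE), with a limma adjusted p of 0.290. The clamp gene Pcna was at 205 ± 13.5 and 210.1 ± 10.7 TPM. For nucleotide synthesis, the ribonucleotide reductase genes Rrm1 and Rrm2 had log2 fold changes of -0.062 and -0.11, and the thymidylate synthase gene Tyms 0.088. All of these groups overlapped except those of Gins2.

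**Figure D4:**
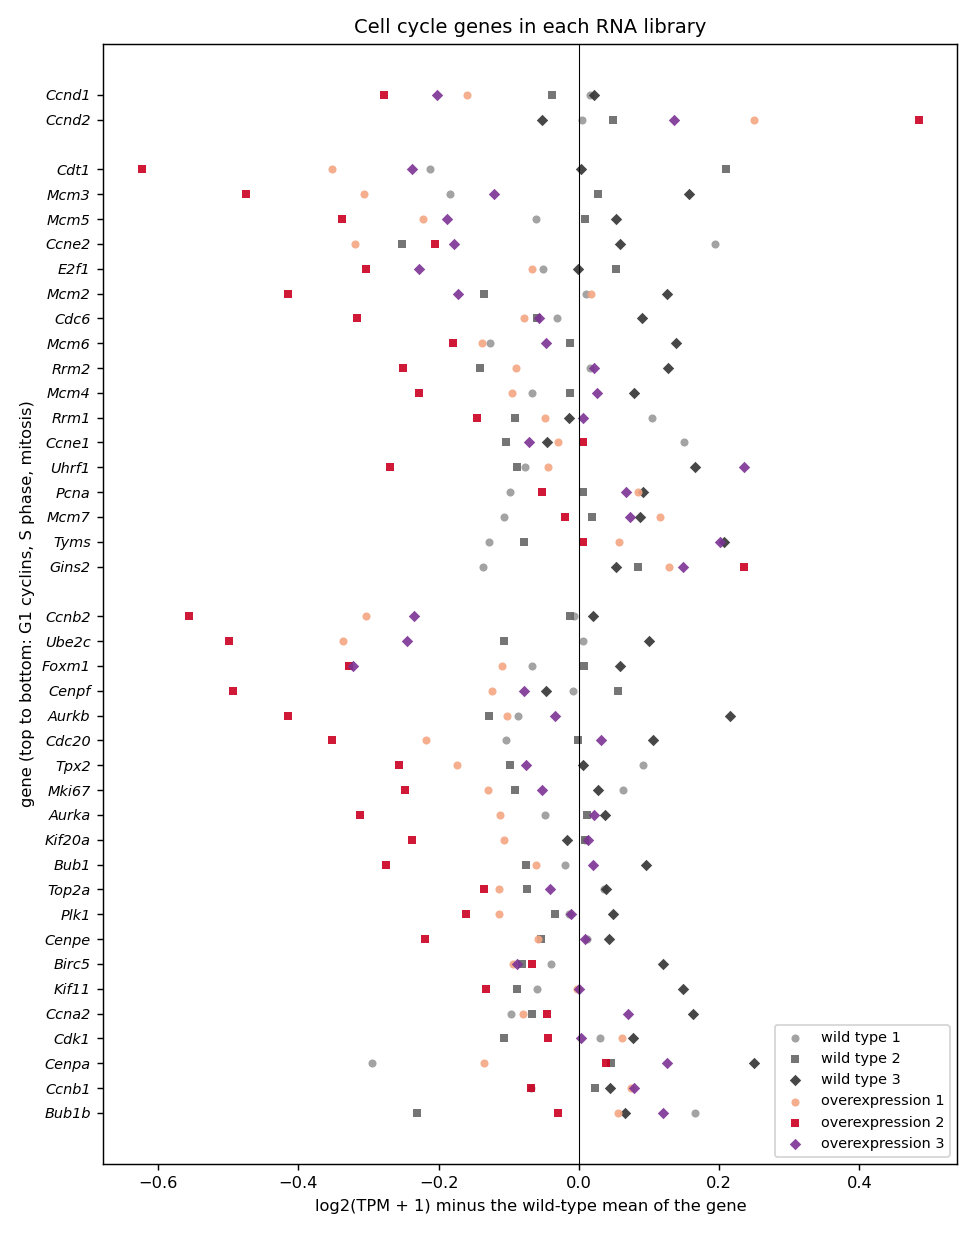
Points are the 6 RNA libraries for each of the 40 genes, as log2(TPM + 1) minus the wild-type mean of the gene. Red squares, overexpression replicate 2, are leftmost for 28 genes, and Ccnd2 and Gins2 are the genes with all 3 overexpression libraries to the right of wild type.

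Among the mitosis genes, the smallest p belonged to Ube2c (ENSMUSG00000001403.13), which marks cyclins for destruction with the anaphase-promoting complex. It read 162, 150.2 and 174 TPM in wild type, against 128, 114 and 136 TPM in overexpression cultures. The groups did not overlap, at 162 ± 11.7 and 126 ± 11.1 TPM (SD, n = 3 each). The log2 fold change was -0.36 ± 0.086 (SE), with a limma adjusted p of 0.131 that ranged from 0.0119 to 0.356 over the 14 alternatives. Cdc20, which activates the same complex, was at 59.7, 64.1 and 69.2 TPM in wild type, against 55.0, 50.1 and 65.7 TPM in overexpression cultures and overlapped.

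The B-type cyclins, partners of Cdk1, had unequal fold changes as well. Ccnb2 (ENSMUSG00000032218.7) read 77.0, 76.7 and 78.5 TPM in wild type, against 62.5, 52.3 and 65.6 TPM in overexpression cultures. Ccnb1 read 40.2, 42.9 and 43.6 TPM in wild type, against 44.5, 40.2 and 44.6 TPM in overexpression cultures. Ccnb2 was lower in all 3 overexpression libraries, whereas the Ccnb1 groups overlapped.

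For Ccnb2 the log2 fold change was -0.37 ± 0.090 (SE), with a limma adjusted p of 0.131 that ranged from 0.00887 to 0.356 over the alternatives. For Ccnb1 it was 0.028 ± 0.072, with a limma adjusted p of 0.863. The ratio of Ccnb2 to Ccnb1 was 1.91, 1.79 and 1.80 in wild type and 1.40, 1.30 and 1.47 in overexpression cultures. Their kinase gene Cdk1 was at 257 ± 16.8 and 258 ± 9.51 TPM (SD, n = 3 each). Its log2 fold change was 0.0074 with a 95% interval from -0.15 to 0.17. Ccna2, the cyclin of S phase and G2, was at 72.8 ± 7.44 and 71.7 ± 4.00 TPM.

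**Figure D5:**
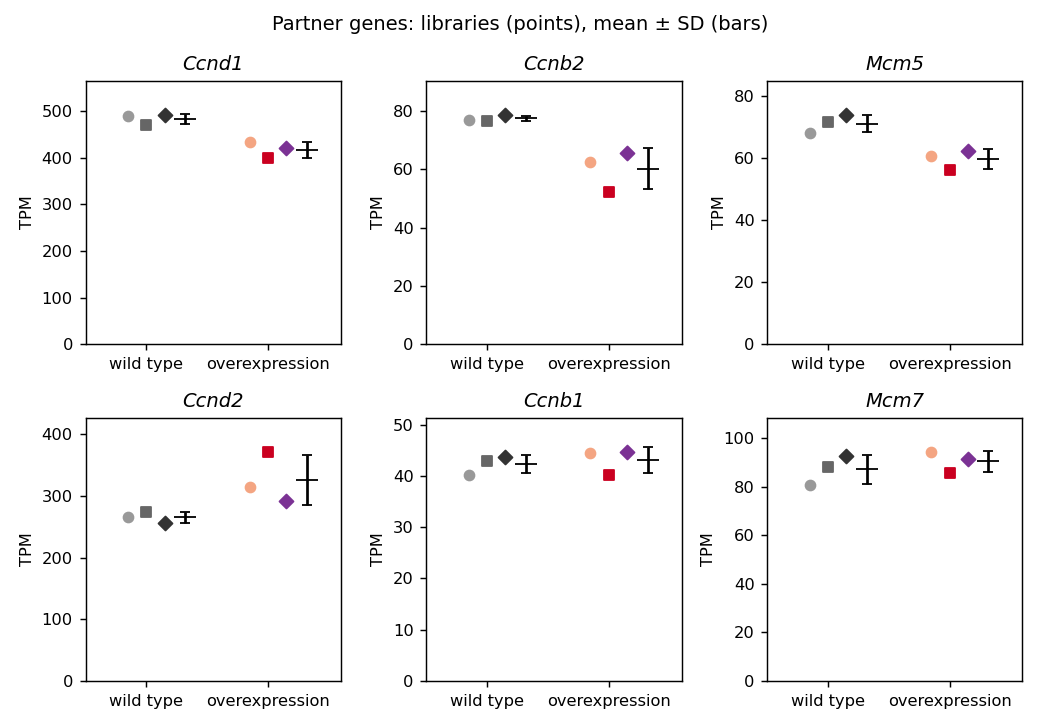
TPM of 6 partner genes in each library (points), with mean ± SD (bars) per genotype, on axes that start at 0. The overexpression libraries are separate from wild type for Ccnd1, Ccnd2, Ccnb2 and Mcm5 and overlap with it for Ccnb1 and Mcm7.

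Foxm1, a transcription factor that activates mitotic genes, read 44.2, 46.6 and 48.3 TPM in wild type, against 42.8, 36.7 and 36.9 TPM in overexpression cultures, without overlap. Its log2 fold change was -0.25 ± 0.083 (SE; limma adjusted p = 0.181). The proliferation marker Mki67, present on mitotic chromosomes, read 70.0, 62.9 and 68.3 TPM in wild type, against 61.2, 56.3 and 64.6 TPM in overexpression cultures. Its groups overlapped through wild-type replicate 2, with a log2 fold change of -0.14 ± 0.077 (SE; limma adjusted p = 0.344). Top2a, the topoisomerase that untangles sister chromatids, was at 119 ± 5.25 and 111 ± 3.88 TPM (SD, n = 3 each).

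The mitotic kinase genes Aurka, Aurkb, Plk1, Bub1 and Bub1b overlapped between genotypes, with log2 fold changes from -0.18 for Aurkb to 0.049 for Bub1b. Birc5, a subunit of the chromosomal passenger complex, was at 129 ± 9.71 and 121 ± 1.25 TPM (SD, n = 3 each). Of the spindle motor and spindle assembly genes, Tpx2 had a log2 fold change of -0.17, Kif20a of -0.11 and Kif11 of -0.045, again with overlap. Among genes of the centromere and kinetochore, Cenpf was lower in every overexpression library, at 19.9, 15.2 and 20.6 TPM against 21.7, 22.7 and 21.1 TPM in wild type (log2 fold change -0.23, limma adjusted p = 0.331). Cenpe had -0.090 and Cenpa 0.0097, and the wild-type libraries of Cenpa alone ran from 43.5 to 63.9 TPM.

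Genes of the same pathways outside the list had similar medians. Of 46 other replication genes, 0 were called by limma, 36 were below 0 and the median log2 fold change was -0.097. At an unadjusted p under 0.05, 5 were lower (10.9%, near the 8.94% of all genes) and 0 higher (against 10.6%). The smallest p among these belonged to the ligase gene Lig1, at 80.5 ± 3.53 and 69.0 ± 2.97 TPM, and to Pola2, a subunit of DNA polymerase alpha. Pola2 was at 36.0 ± 3.45 and 29.0 ± 1.82 TPM (SD, n = 3 each), and the limma adjusted p were 0.154 for Lig1 and 0.160 for Pola2. The most abundant, Tipin and Rpa1, had log2 fold changes of -0.18 and -0.24 (limma adjusted p = 0.344 and 0.182). Of 50 other mitosis genes, 0 were called by limma, 40 were below 0 and the median was -0.097. At an unadjusted p under 0.05, 6 were lower (12%, near the 8.94% of all genes) and 1 higher (2%, against 10.6%). The condensin subunit gene Ncapd2 and the spindle gene Gtse1, with the smallest p, had log2 fold changes of -0.31 and -0.33 (limma adjusted p = 0.189 each). The most abundant, Prc1 and Bub3, had -0.026 and -0.11 (limma adjusted p = 0.863 and 0.581).

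The 22 other genes of G1 kinases, E2F factors, pocket proteins and the MuvB complex had a median log2 fold change of -0.11, with 0 called by limma and 4 lower (18.2%, against 8.94% of all genes) and 1 higher (4.55%, against 10.6%) at an unadjusted p under 0.05. E2f4, an E2F factor that acts mainly with repressive pocket proteins, read 54.0, 56.1 and 59.5 TPM in wild type, against 43.0, 40.9 and 45.5 TPM in overexpression cultures. Its log2 fold change was -0.38 ± 0.071 (SE), with a limma adjusted p of 0.128. Mybl2, which encodes B-MYB, was at 13.1, 12.4 and 14.9 TPM in wild type, against 11.0, 6.48 and 9.79 TPM in overexpression cultures, with a log2 fold change of -0.55 ± 0.18 (SE) and a limma adjusted p of 0.185. Neither gene overlapped between genotypes.

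Footprint scores of E2F, TFDP1, NF-Y and MYB family motifs were taken from the authors' deposited table. The 2 mice of each genotype are merged there, so the scores carry no error between mice. Scores and counts cover all motif sites searched, such as 27001 for E2F6, and are not limited to the promoter windows above. Footprints at the cell cycle promoters themselves were not examined, and no score for FOXM1 is given here. In the authors' deposited table the mean footprint score was lower in overexpression cells for all 8 E2F and TFDP1 motifs, as it was for 43.6% of all 879 motifs. Sites called bound were also fewer for all 8, against 37.1% of all motifs, in the authors' deposited table. For E2F1 the authors' deposited table lists 600 of 2463 sites as bound in wild type (24.4%, Wilson 95% interval 22.7 to 26.1) and 543 in overexpression cells (22.0%, 20.5 to 23.7). For TFDP1, the partner of E2F factors, it was 3714 of 10722 sites (34.6%, 33.7 to 35.5) and 3149 (29.4%, 28.5 to 30.2) in the authors' deposited table. These intervals treat sites as independent within the merged data of each genotype, so they give no test between genotypes.

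The authors' deposited change score, with the sign set so that values above 0 are higher in overexpression cells, did not share that direction for every E2F motif. It was below 0 for 3 of the 8, E2F8, TFDP1 and E2F6, at -0.11, -0.096 and -0.060, and above 0 for the other 5, up to 0.15 for E2F7, in the authors' deposited table. The median over all motifs in the authors' deposited table was 0.11, and 38.1% of motifs were below 0. The 3 NF-Y motifs had higher mean scores in overexpression cells and changes of 0.050 to 0.11 in the authors' deposited table, although NFYB had fewer bound sites there (4088 in wild type and 4062 in overexpression cells). For MYBL2, the motif of B-MYB, the authors' deposited table gives a mean score of 0.206 in wild type and 0.221 in overexpression cells. Bound sites numbered 271 and 288, and the change was 0.22, beside the median of 0.11 over all motifs, most of which were above 0. In the authors' deposited table the related motifs MYBL1 and MYB had changes of 0.18 and 0.025. The mean score of MYB was lower in overexpression cells, at 0.209 and 0.208. Mybl2 RNA was at the lower values given above, and a link to the motif was not tested. Motifs of 1 family can share sites. The authors' deposited table places E2F1, E2F2 and E2F4 in the same motif cluster, and likewise NFYA and NFYC, so these motifs do not count as independent. Overlap of their sites was not measured here, and the intervals cover counting error only.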

How the data were processed

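RNA levels were analysed in 3 wild-type and 3 Adamts7 overexpression libraries, grouped by the genotype label. The authors deposited TPM per gene, from kallisto on mm10 per the labels and the submitters' processing notes. Each library sums to 1000000 TPM, so levels are relative, and the kallisto version and annotation were not given in the sources used here. For footprints, the table the authors deposited has TOBIAS BINDetect columns, per the file headers: a mean score per genotype, counts of sites searched and bound, a change score and the authors' p-value, which is not quoted.

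Genes averaging 1 TPM or more were tested on log2(TPM + 1), where folds of low genes are understated, by limma's two-sided moderated test with a mean-variance trend (limma 3.58.1, R 4.3.3), with Benjamini-Hochberg adjustment over all 13131 genes and a threshold of 0.05. The members and lists were chosen with earlier results of these data known. Named genes are the 40 members and, of each comparison list, those with the 2 smallest p or the 2 highest levels. Myh11, Kdr, Tek, Vwf, Robo4, Cldn5, Pecam1, Eng, Egfl7, Erg, Esam, Tie1 and Sox18 are named outside that rule. Promoters, IDs and positions came from reference tables (GRCm38.p6; all 40 matched). Motifs were searched in Python 3.11.15. The fit was tested on simulated data with effects larger than any of the 40 genes, so its power for effects of their size was not tested.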

Additional observations from a re-analysis of the deposited data

How the results depend on the processing

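Analyses were repeated with 14 alternatives. The log2 fold changes of the 40 genes gave 560 values, of which 532 kept their sign and their side of the threshold, 19 turned sign and 9 passed an adjusted p of 0.05. With library quality weights limma called 2728 genes (20.8% of those tested) and 7 of the 40 (17.5%): Cdt1, Mcm3, Mcm5, Ccnb2, Ube2c and Ccnd1 lower and Ccnd2 higher. The weights were 5.66 for overexpression replicate 1 and 0.278 for overexpression replicate 2. Without overexpression replicate 3 it called 828 genes (6.3%) and 2 of the 40 (5%), Ccnb2 and Ube2c (adjusted p = 0.0426 and 0.0434); over all 6 libraries left out in turn these counts ran from 1 to 828 and from 0 to 2. With 1 library left out, the genes lower at an unadjusted p under 0.05 numbered 4 to 10 (10% to 25%) and the higher ones 0 to 1, while the lower share of all genes ran from 5.25% to 13.8%. The count of called genes was 1 with a mean of at least 5 TPM.

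Signs turned for genes near 0. Cdk1 had -0.013 under quantile normalisation and -0.0099 without mitochondrially encoded genes, Cenpa -0.0074 without those genes and -0.16 with weights, and Ccne1 0.0029 with weights. With 1 library left out, values ran from -0.084 to 0.043 for Ccne1, -0.016 to 0.079 for Pcna, -0.0058 to 0.076 for Ccnb1, -0.14 to 0.13 for Cenpa, -0.046 to 0.046 for Cdk1, -0.067 to 0.13 for Bub1b, -0.16 to 0.095 for Uhrf1, -0.067 to 0.063 for Ccna2 and -0.089 to 0.029 for Kif11. The S phase median ran from -0.16 to -0.050 and the mitosis median from -0.17 to -0.063 over all alternatives, and their difference from -0.034 to 0.021. The cause of these shifts was not tested.

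With the mouse number as a replicate block, 1 gene was called, 0 of the 40 were called and 7 of them (17.5%) were lower at an unadjusted p under 0.05, against 9.18% of all genes. The labels give no pairing, and deviations of same-numbered mice correlated at -0.022, 0.058 and 0.018 over genes; not every library correlated best with its own number.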
